A study of Mus musculus with 14 samples.

Results

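Colon gene expression was compared between mice that lack the glucocorticoid (GC) receptor (GR) in the intestinal epithelium and their floxed controls when neither had been given a GC. The arrays were chosen by their deposited titles, 3 of GR iKO mice given PBS and 4 of Flox mice given PBS, which makes 7 of the 14 arrays of the series. Flox mice carry GR fl/fl alleles, and GR iKO mice carry the same alleles with a Villin-cre transgene, which is active in epithelial cells of the intestine. All were male C57BL/6 mice on chow that had been adrenalectomized (ADX) 2 weeks earlier to remove the main source of their own GCs, and the colon was taken 6 hours after the injection. The labels give an age of 8 to 10 weeks and an age of 6 to 8 weeks at ADX, and the study's methods give an older age for the surgery. The treatment text of the labels describes dexamethasone (DEX), a synthetic GC, at 1 mg/kg for all samples, so the groups rest on the titles. The remaining 7 arrays, 3 of Flox and 4 of GR iKO mice given DEX, come from other mice and are used below for the spread and for comparison.

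GR, encoded by *Nr3c1*, is a nuclear receptor that stays in the cytoplasm with chaperones until it binds a GC, and then acts on genes in the nucleus. GCs come from the adrenal gland and, in smaller amounts, from the intestinal epithelium itself, which makes them with enzymes such as *Cyp11a1*. In the gut, GR is known for raising genes of sodium uptake and for restraining inflammatory genes, and the comparison under PBS asks what its loss does while adrenal GCs are absent.

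Total RNA of the colon was hybridized to 1-color Agilent mouse arrays, 1 mouse per array, and the values are the authors' log2 signals of 41174 probes. RNA came from whole tissue, so that muscle, stroma, and immune cells, in which Villin-cre is not active, contribute to every value. The scanner software put 28357 to 30043 probes well above background on the Flox arrays and 28511 to 28802 on the GR iKO arrays. The 28184 probes that were well above background on every array of at least 1 of the groups are described here. No slide and no scanning run held arrays of more than 1 group, so slide, scan, and group cannot be told apart. Two-sided limma tests were adjusted over all probes of the table, and a probe is called at an adjusted p under 0.05.

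Before any comparison, 2 mice stood apart from their group. In GR iKO replicate 2, *Hoxb13*, a homeobox gene of the hindgut end of the body axis, had a log2 signal of 5.59, against at least 13.80 in the other GR iKO mice and 13.10 to 13.86 in the Flox mice. In Flox replicate 2, *Cpb1*, which encodes a digestive carboxypeptidase of the exocrine pancreas, had a log2 signal of 16.17, against 5.86, 9.15, and 5.98 in the other Flox mice and 6.28 to 6.42 in the GR iKO mice. The cause of these values was not tested, and the results seen to depend most on either mouse are given with and without it.

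*Nr3c1* was measured by 4 probes, and all of them were lower in GR iKO mice. The brightest, on array row 476, had log2 signals of 10.80, 10.91, 10.87, and 10.70 in the 4 Flox mice and of 10.21, 9.86, and 9.68 in the 3 GR iKO mice. No GR iKO mouse reached the lowest Flox mouse, and the difference of −0.91 (SE 0.12, limma adjusted p = 0.0134) corresponds to a 1.87-fold lower signal. Of the other 3 probes, those on rows 342 and 189 were called as well, at −1.08 and −0.83 (adjusted p = 0.0254 and 0.0204). The dimmest, on row 483, differed by −1.0 without overlap between the groups and was not called (adjusted p = 0.658). *Nr3c1* signal remained in every GR iKO mouse, and in tissue of mixed cells fewer cells that express a gene and less RNA per cell cannot be told apart. Which exons are deleted and where the probes lie are not given in the sources used here, so the probes check the labels only in part. The call of the brightest probe was lost when only the PBS arrays were fitted (adjusted p = 0.137), with replicate numbers as a block (difference −0.93), when the probes of the gene were averaged (difference −0.95), and in the adjusted test of the PBS groups alone without moderation (adjusted p = 0.378).

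**Figure D1:**
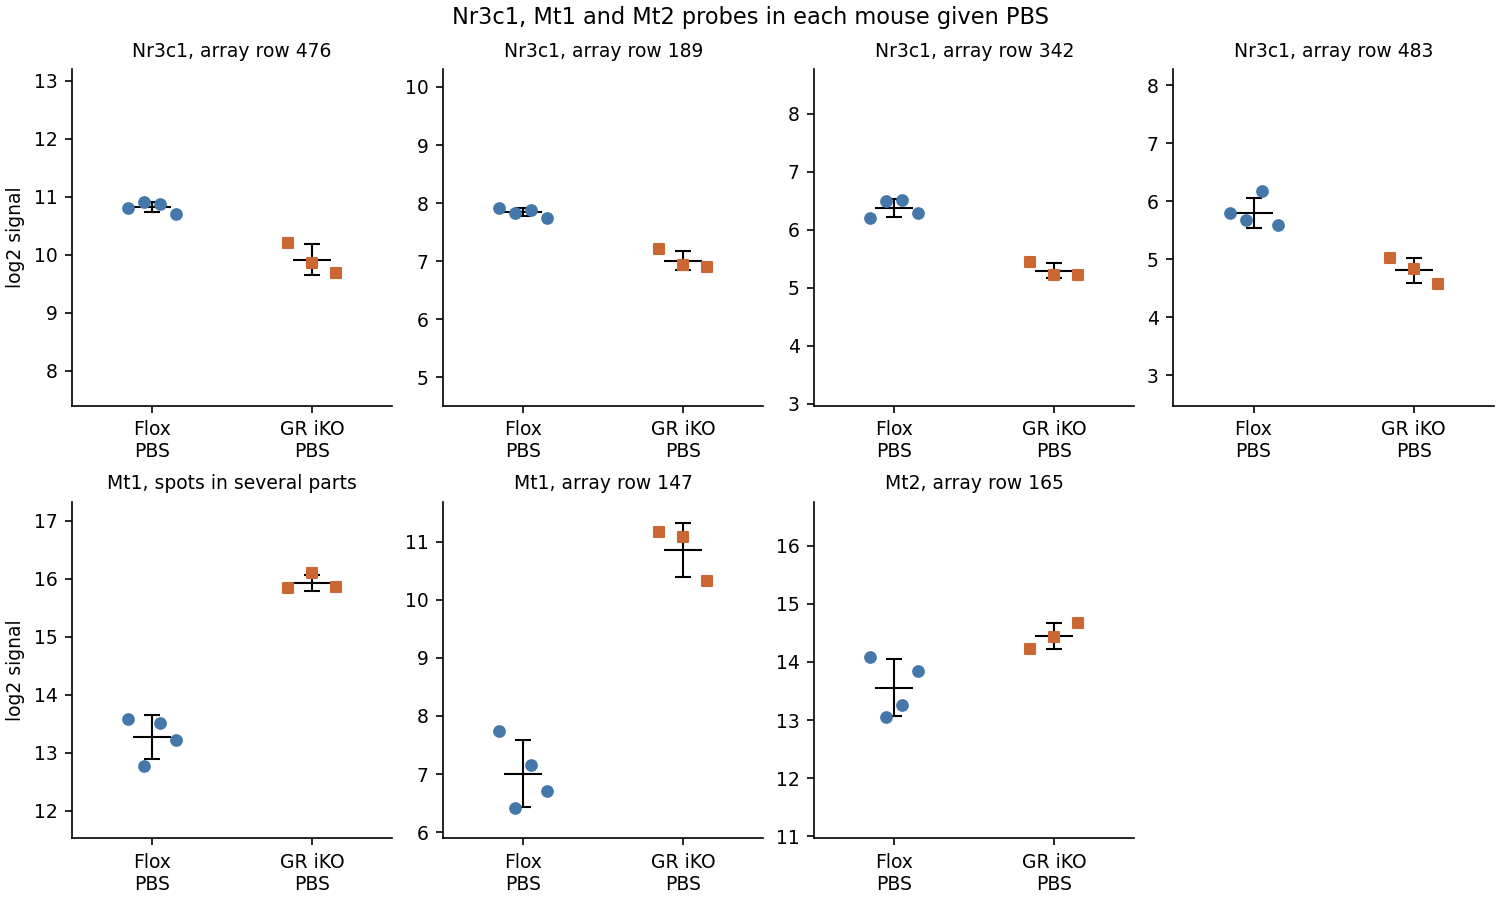
Log2 signal of the 4 *Nr3c1* probes, the 2 *Mt1* probes, and the *Mt2* probe in each PBS mouse, with circles for Flox and squares for GR iKO mice, horizontal bars for group means, and error bars for SD (n = 4 and 3). Every axis spans the same number of log2 units. All 3 GR iKO mice lie below all 4 Flox mice for each *Nr3c1* probe and above them for *Mt1* and *Mt2*.

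*Mt1*, which encodes a small cysteine-rich protein that binds zinc and copper, rose most among the called genes with a bright signal. Its probe with repeated spots had log2 signals of 13.59, 12.77, 13.52, and 13.22 in Flox mice and of 15.84, 16.09, and 15.85 in GR iKO mice. The GR iKO mice lay close together, more than 2 log2 units above the highest Flox mouse, and the difference was 2.65 (SE 0.20, limma adjusted p = 0.000269), or 6.29-fold. A second probe had log2 signals of 7.74, 6.42, 7.15, and 6.71 in Flox mice and of 11.17, 11.08, and 10.32 in GR iKO mice. It also rose without overlap, by 3.85 (SE 0.36, adjusted p = 0.00201). The repeated spots allow the difference to be read at several places of the array, and with the rows divided into a first, a middle, and a last part of about equal length, it was 2.61 over the 4 spots of the first part, 2.60 over the 5 spots of the middle part, and 2.64 for the spot of the last part. Leaving out any of the 14 arrays kept the *Mt1* call of the first probe, with differences from 2.48 to 2.76.

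*Mt2*, the neighboring metallothionein gene and a known GC target, had log2 signals of 14.08, 13.05, 13.26, and 13.85 in Flox mice and of 14.23, 14.43, and 14.68 in GR iKO mice. Each GR iKO mouse was above each Flox mouse, but the difference of 0.89 (SE 0.26) was not called (adjusted p = 0.333). The 11 described genes of the list of metallothioneins and zinc transport held no other call, and their median difference of 0.06 was close to the median of 0.01 over the 15533 described genes. *Mt3*, which is best known from brain, differed by −0.22, and the zinc importer *Slc39a4* by −0.05. The signals of the list, summed before taking log2, gave 16.34 to 16.54 in Flox mice and 17.09 to 17.36 in GR iKO mice. Such a sum is dominated by the brightest genes, *Mt1* among them, and 6 genes of the list were above 0 and 5 below.

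The promoters of *Mt1* and *Mt2* are shown because metallothionein genes are classic targets of a zinc-sensing factor, MTF1, which binds metal response elements. The sequences are the RefSeq promoters of build GRCm38.p6, from 250 bases before to 50 bases after the start, on the plus strand at chr8:94178839-94179138 for *Mt1* and chr8:94172368-94172667 for *Mt2*. Capitals mark matches to the core of that element, TGCACNC or TGCGCNC, on either strand.
Mt1: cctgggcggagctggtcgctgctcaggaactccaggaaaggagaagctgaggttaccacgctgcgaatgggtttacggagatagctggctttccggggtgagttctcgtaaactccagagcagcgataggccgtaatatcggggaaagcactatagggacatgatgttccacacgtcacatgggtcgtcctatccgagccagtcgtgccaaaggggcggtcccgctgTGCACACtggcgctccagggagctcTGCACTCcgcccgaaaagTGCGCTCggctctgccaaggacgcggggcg
Mt2: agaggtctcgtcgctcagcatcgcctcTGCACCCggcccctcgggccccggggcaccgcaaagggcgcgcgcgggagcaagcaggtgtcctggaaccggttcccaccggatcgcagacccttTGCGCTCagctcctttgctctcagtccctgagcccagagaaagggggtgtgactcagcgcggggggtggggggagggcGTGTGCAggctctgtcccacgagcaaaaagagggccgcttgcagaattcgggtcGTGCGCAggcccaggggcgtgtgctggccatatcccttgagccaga
The *Mt1* promoter held 3 matches and that of *Mt2* held 4. Of 32851 mouse promoters of this length, 25.7% held at least 1 match, 1.97% at least 3, and 0.517% at least 4. A match is a description of the letters in this window, and metal content and binding were not measured.

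Across the colon, few probes differed between the genotypes under PBS. Of 28184 described probes, 52 were called (0.185%), with 29 higher (0.103%) and 23 lower (0.0816%) in the GR iKO group, and 37 also changed at least 2-fold (0.131%). Over all probes of the table, 77 of 41174 were called (0.187%). Detection fixed the direction of some calls, because 13 of the higher probes were not well above background on every Flox array and 4 of the lower ones were not on every GR iKO array. Among the 26660 probes well above background on all 7 arrays, 16 were called higher and 19 lower. The count depended on single mice. It was 128 without GR iKO replicate 2, the mouse with little *Hoxb13*, 27 without Flox replicate 3, 23 without Flox replicate 4, and 110 without replicate 4 of the Flox mice given DEX. With only the 7 PBS arrays in the fit, 7 probes were called. Over all 14 arrays, limma gave 2094 described probes at an unadjusted p under 0.05, and a share of 0.05 is reached without any difference. They were 436 of 9412 in the first part of the rows, 743 of 9555 in the middle part, and 901 of 9009 in the last.

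The calls were not spread evenly over the array. In the first part of the rows, 3 of 9412 described probes were called (2 higher and 1 lower). In the middle part, 29 of 9555 were called, 26 higher and 3 lower. In the last part, 19 of 9009 were called, and all of these were lower. Among 208 probes with spots in several parts, *Mt1* was called. The higher calls of the middle part lay between rows 291 and 334, and the lower calls of the last part between rows 428 and 529, limits read from the calls themselves. Together, 45 of the 52 calls lay in these bands in the direction of the band. The counts per part moved with single arrays too. Without GR iKO replicate 2, 85 probes were called lower in the last part, and 36 without Flox replicate 2, 71 without replicate 4 of the Flox mice given DEX, 10 without Flox replicate 1 or 3, and 6 without Flox replicate 4. The 26 higher calls of the middle part became 11, 14, and 17 without Flox replicates 3, 4, and 1, 12 without GR iKO replicate 3, and 16 without replicate 2 of the Flox mice given DEX. When the middle and last parts were left out, an alternative chosen after seeing the data, 3 probes were called, 2 higher and 1 lower.

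**Figure D2:**
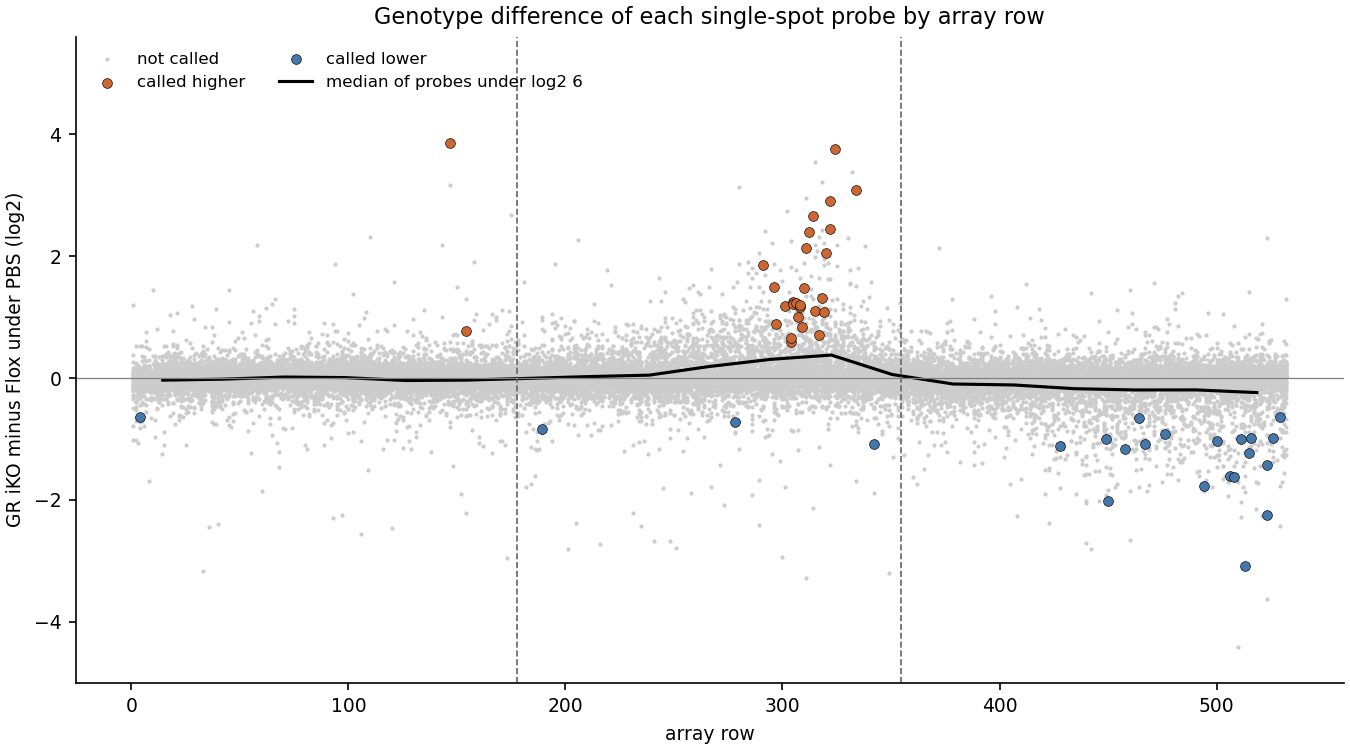
Difference between GR iKO and Flox mice under PBS (log2) of each described probe with a single spot against its array row. Large points are called probes, the line is the median over probes with a mean log2 signal under 6, and dashed lines separate the first, middle, and last parts of the rows. Higher calls gather on rows 291 to 334 and lower calls on rows 428 to 529.

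Dim probes moved with the row, most clearly on the rows of the higher calls. Of the 29 probes called higher, 22 had a mean log2 signal under 6, and the median of that mean was 4.81. On rows 291 to 334, the 594 described probes under log2 6 had a median difference of 0.34 and held 21 of the calls, whereas the 955 probes of log2 9 or more had a median of −0.02 and no call. The same dim probes lay below their 14-array mean in all Flox mice, by medians of −0.25, −0.18, −0.20, and −0.17, and above it in all GR iKO mice, by 0.17, 0.20, and 0.13. On rows 428 to 529, the 1173 dim probes had a median difference of −0.19 and held 8 lower calls, and the 2182 probes of log2 9 or more had a median of 0.03 and held 5. There, the deviations of Flox mice were 0.13, −0.08, 0.08, and 0.05, and those of GR iKO mice were −0.16, −0.09, and −0.14, so that 1 Flox mouse, replicate 2, lay on the side of the GR iKO mice. The detection rule sets part of these medians, since it keeps dim probes that passed in 1 group only, and those differed by a median of 0.83 on the rows of the higher calls (169 probes) and of −0.62 on the rows of the lower calls (400 probes). Among dim probes measured in both groups, the medians were 0.25 (425 probes) and −0.07 (773 probes), and among probes not described on the same rows they were 0.47 and 0.04. In mice given DEX, which lay on other slides, the medians of all described dim probes were 0.17 and 0.10. The part of the row in the calls was not tested for single probes, and it cannot be told apart from the group where a gene has 1 probe.

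**Figure D3:**
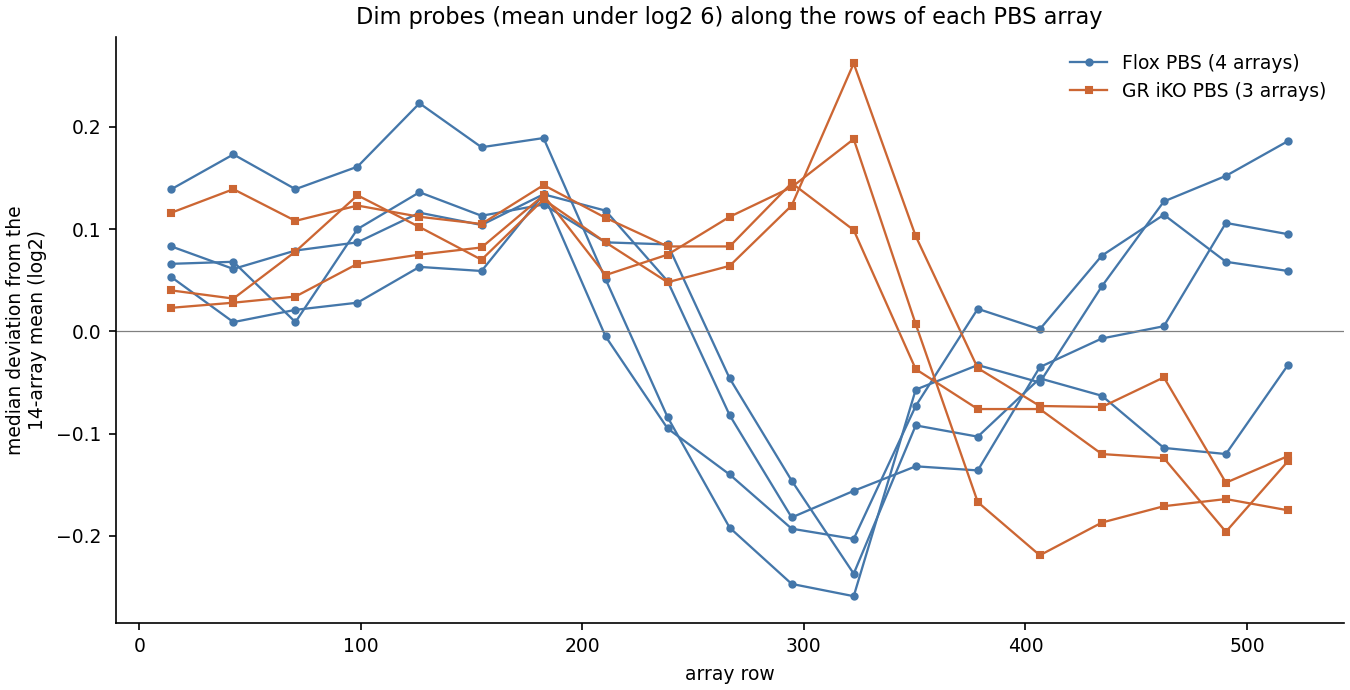
Median deviation from the 14-array mean (log2) of described probes with a mean log2 signal under 6, in steps of 28 array rows, for each of the 4 Flox (circles) and 3 GR iKO (squares) arrays under PBS. The groups run together over the first rows, separate around rows 291 to 334, where all GR iKO arrays lie above all Flox arrays, and cross before the last rows.

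Genes with several described probes allow a check within the gene. Among the 36 genes with a called probe, 18 had more than 1 described probe, and *Nr3c1* and *Mt1* were the 2 with several called probes. In the other 16, a single probe was called and no other probe of the gene was. In 14 of these 16, all other probes differed by less than 0.3, a limit set after seeing the data. The share of all described probes under that limit was not counted, and only 0.185% of them were called. The 14 are therefore a description of these genes and no result particular to them. *Olfml2a*, which encodes an extracellular matrix protein, was well above background on 0 of 4 Flox arrays with its probe on row 334, which makes it at least 6.66-fold higher, and differed by 0.06 with its other probe. *Cckbr*, the receptor of gastrin and cholecystokinin, was likewise dim in all Flox mice on row 314, at least 6.17-fold higher in GR iKO mice, and differed by 0.14 elsewhere. *Synpo*, which encodes an actin-binding protein, gave −1.08 on row 467 and 0.08 elsewhere. The other 2 genes, *A230072E10Rik* and *Iqcd*, had second probes at −1.01 and −0.56 that were not called (adjusted p = 0.299 and 0.655).

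Genes called higher in GR iKO mice numbered 13 of 15533 (0.0837%), each represented by its brightest probe, and 11 of these besides *Mt1* and *Carns1* lay on rows 304 to 324. Several of these were not measured in Flox mice, so they are not ranked. *Cfap54*, which encodes a protein of cilia and flagella, had log2 signals of 1.39, 1.97, 2.39, and 1.40 in Flox mice, where it was not well above background on any array, and of 6.44, 5.10, and 5.12 in GR iKO mice, so it was at least 10.6-fold higher on the deposited scale (adjusted p = 0.00201). With normexp background correction, which adds an offset of 50 to all signals, the difference was 0.68. That offset shrinks differences of dim probes in advance. For dim probes, the smaller sizes with normexp here and below are therefore no test of those on the deposited scale. Whether a call lost with normexp goes beyond that was not tested. *Olfr272*, an olfactory receptor gene, was likewise dim in all Flox mice and at least 5.42-fold higher, and *Pdzd4*, well above background on 2 of 4 Flox arrays, was at least 5.25-fold higher, while a second *Pdzd4* probe, not among those described, had a difference of 0.00. With normexp, *Olfr272* and *Pdzd4* differed by 0.33 and 0.71, and neither was called. Where both groups were measured, *G6pc*, the last enzyme of glucose release, had log2 signals of 5.03, 4.80, 4.56, and 4.91 in Flox mice and of 5.8, 6.67, and 5.93 in GR iKO mice. The groups did not overlap, and the difference was 1.31 (SE 0.22, adjusted p = 0.0481). Its call was lost without any of the PBS arrays but GR iKO replicate 2, with adjusted p from 0.0585 without GR iKO replicate 4 to 0.112 without Flox replicate 3. With normexp, the difference of *G6pc* was 0.46 and not called. *Gabrr1*, a subunit of a GABA-gated channel, rose by 1.08 and was not called without Flox replicate 3 (adjusted p = 0.0573). *Sla2*, an adaptor of lymphocyte signaling, rose by 1.0 and kept its call among the PBS arrays only when GR iKO replicate 3 was the array left out. Over 17 alternatives of the processing, its difference ran from 0.43 to 1.01, and its call was lost in 7. *Olfr272* lost its call without Flox replicate 3 or 4 or GR iKO replicate 3 (adjusted p = 0.0573, 0.0542, and 0.0503). Outside these rows, *Carns1*, which encodes carnosine synthase, rose by 0.78 on row 154 (adjusted p = 0.0277), and its call was lost without GR iKO replicate 3 or 4 or Flox replicate 2, 3, or 4 (adjusted p = 0.0722, 0.0642, 0.0515, 0.0555, and 0.0752). With normexp, its difference was 0.23 and not called.

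Genes called lower also numbered 13 (0.0837%), and 11 of them, all but *Syn1* and *9530080O11Rik*, lay on rows 449 to 529, among them *Nr3c1* with its brightest probe on row 476. *Tmprss15*, which encodes the brush border protease that activates trypsinogen, had log2 signals of 5.61, 5.09, 6.03, and 6.55 in Flox mice and of 2.56, 2.51, and 3.16 in GR iKO mice. It was well above background on 4 of 4 Flox arrays and 0 of 3 GR iKO arrays, which makes it at least 8.43-fold lower (adjusted p = 0.0264). With normexp, the difference was −0.72 and not called, and a second probe of the gene, not among those described, differed by −0.10 and was not called. Its call was lost without Flox replicate 1, 3, or 4 or GR iKO replicate 3 (adjusted p = 0.0565, 0.0759, 0.0651, and 0.0780). *Pga5*, a pepsinogen gene, was also below the background threshold in all GR iKO mice and at least 4.04-fold lower. With normexp it differed by −0.51 and was not called, and it also lost its call without Flox replicate 1, 3, or 4 or GR iKO replicate 3 or 4. Among genes measured in both groups, *Prlhr*, the receptor of prolactin-releasing peptide, had log2 signals of 7.04, 6.52, 6.56, and 6.70 in Flox mice and of 5.66, 4.45, and 5.18 in GR iKO mice. It fell by 1.61 (SE 0.24, adjusted p = 0.0254) without overlap, and was not called without Flox replicate 1, 3, or 4 (adjusted p = 0.0566, 0.0565, and 0.0651). With normexp it was called at a difference of −0.72. *Adora2a*, an adenosine receptor gene, was the tightest, with 10.07, 10.07, 9.96, and 10.10 in Flox mice and 9.07, 9.02, and 9.11 in GR iKO mice, a fall of 0.98 (SE 0.14, adjusted p = 0.0204), while its other probe differed by −0.05. Over 17 alternatives of the processing, the *Adora2a* difference ran from −0.99 to −0.51, and its call was lost in 5. *Adora2a* was not called without Flox replicate 4 or GR iKO replicate 3 (adjusted p = 0.0555 and 0.0591). *Syn1*, a synaptic vesicle gene, fell by 0.64 on row 4, its other probe differed by 0.20, and its call was lost without the same 2 mice (adjusted p = 0.0533 and 0.0503). Over 19 alternatives of the processing, its difference ran from −0.67 to −0.22, and its call was lost in 5.

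Mice of the same genotypes given DEX offer a comparison whose group means come from other arrays. Both contrasts take their spread from the same fit over 14 arrays, so their calls are not independent. There, 166 of the 28184 described probes were called between the genotypes (0.589%). Of the 52 probes called under PBS, 29 differed in the same direction under DEX, and 4 were called again, all in the same direction. These 4 were 3 *Nr3c1* probes, at −1.24, −1.37, and −1.17, and the second *Mt1* probe, at 3.00 (adjusted p = 0.0098). The *Mt1* probe with repeated spots had means of 14.91 in Flox and 15.95 in GR iKO mice given DEX, a difference of 1.04 that was not called (adjusted p = 0.0505). Of the 29 probes called higher under PBS, 25 were also higher under DEX, with a median difference of 0.34 against 1.24 under PBS. Of the 23 called lower, 4 were also lower, and the median was 0.38 against −1.08. On rows 291 to 334, 23 of the 26 called probes were also higher under DEX. The 594 described dim probes of those rows had a DEX median of 0.17. Along the array, the DEX median of dim probes ran from −0.235 on rows 169 to 196 to 0.19 on rows 309 to 336. The share of all described probes higher under DEX was not counted, so these counts cannot be told apart from the row. The 52 probes were chosen by their PBS differences, so some shrinkage under DEX follows from that choice. The change of sign of the median among the lower probes is more than shrinkage, and its cause was not tested. Of the higher probes 13, and of the lower ones 4, were measured in 1 group only, which sets part of the PBS medians. Of the 35 called probes measured in both groups, 18 differed in the same direction under DEX.

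The difference of the genotype effect between DEX and PBS was tested in the same fit, and 57 of 28184 probes were called (0.202%). Among the 52 probes, this difference was called for 19, of which 16 were among the lower probes and 3 among the higher ones. Those 3 were not well above background on every Flox PBS array. Among the 35 called probes measured in both groups, the difference was called for 13. It shares the PBS arrays with the calls, so these counts are no independent support for either. *Tmprss15* was among the 16 (adjusted p = 0.0235), but its difference has no exact size because no GR iKO PBS array measured it well above background. For *Mt1*, the difference was −1.61 and not called (adjusted p = 0.0528). Counted anew among the probes that each fit called under PBS, 128 without GR iKO replicate 2 for example, the 19 became 73 without GR iKO replicate 2, 36 without Flox replicate 2, 7 without Flox replicate 3, and 6 without Flox replicate 4. With a DEX array left out, it became 41 without Flox replicate 4, 10 without Flox replicate 1, and 12 without GR iKO replicate 4. Counted the same way, the 4 repeated calls became 2 without GR iKO replicate 3 of the PBS mice and 7 without GR iKO replicate 4 of the DEX mice.

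**Figure D4:**
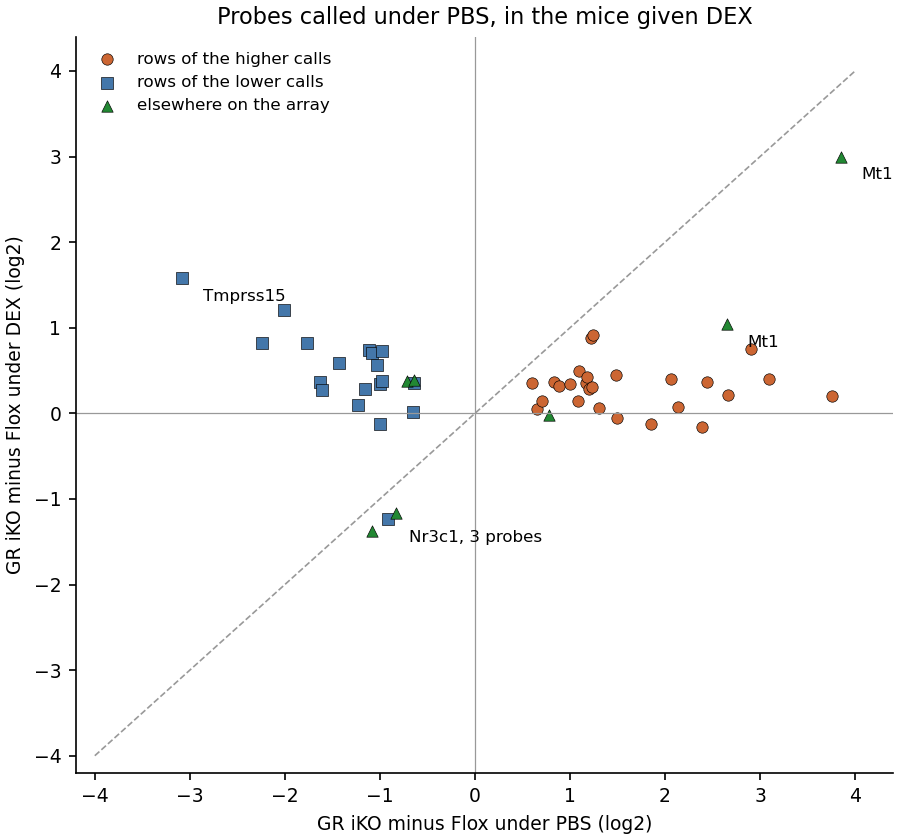
Difference between GR iKO and Flox mice (log2) of the 52 probes called under PBS, with the PBS difference on the horizontal and the DEX difference on the vertical axis. Circles are probes on the rows of the higher calls, squares those on the rows of the lower calls, and triangles those elsewhere, and the dashed line marks equal differences. Apart from *Nr3c1* and *Mt1*, the probes lie near or above 0 under DEX, whatever their direction under PBS.

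In 32 lists of genes that cover roles of GR and cell types of the colon, 286 of 325 genes were described, and 3 of them were called, *Nr3c1*, *Mt1*, and *Tmprss15*. The other 29 lists held no called member. The median difference of 27 lists lay within 0.25 of 0. Among GC-induced genes, 0 of 19 were called in either direction (0.0837% of all described genes were called in each), with a median of 0.00 against 0.01 over all described genes. *Fkbp5*, a chaperone of GR and a classic GC target, had log2 signals of 8.88, 7.94, 7.51, and 8.76 in Flox mice and of 9.34, 8.59, and 8.54 in GR iKO mice. The groups overlapped, and the difference of 0.55 was not called. With each PBS array left out, it ran from 0.29 to 0.75.

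Among 13 described GC-repressed inflammatory genes, none was called in limma, with a median of 0.06. The chemokine genes *Ccl7* and *Ccl2* differed by −0.75 and −0.55 and *Ccl5* by 0.41, with overlap in each. With each PBS array left out, these ran from −1.0 to −0.54, from −0.89 to −0.30, and from −0.01 to 0.79. The NF-kB list (11 genes) had a median of 0.02, and the interferon and MHC class II list (12 genes) one of 0.11. Of the 15 genes of the GR and chaperone list, *Nr3c1* was the called one, and the median was −0.03. The list of local GC synthesis and metabolism (8 genes) had a median of 0.02, which was −0.31 without GR iKO replicate 2 and at most 0.10 without another PBS mouse. In it, *Cyp21a1*, a steroid hydroxylase gene, had log2 signals of 5.45, 5.21, 4.91, and 5.39 in Flox mice and of 4.84, 4.07, and 3.67 in GR iKO mice. All GR iKO mice were below all Flox mice, 1 of 3 GR iKO arrays measured it well above background, and its row of 491 is among those of the lower calls. With signals at background in part, *Cyp21a1* was at least 2.07-fold lower, and its differences are not exact. On the deposited scale, its difference of −1.05 became −1.37 and was called without GR iKO replicate 2 (adjusted p = 0.0057), and it was −0.26 with normexp. The immediate early and heat shock list had a median of −0.24, the cell cycle list −0.22, the circadian clock list 0.20, and the bile acid list 0.25, with no call in any. With each PBS array left out, these medians ran from −0.30 to −0.06, from −0.38 to 0.05, from 0.02 to 0.32, and from 0.16 to 0.41, and those of the GC-repressed and interferon lists from −0.10 to 0.27 and from −0.13 to 0.35. *Atf3*, a stress-induced transcription factor gene of the immediate early list, was called without GR iKO replicate 3 (−1.33, adjusted p = 0.0437) and not with it (−0.85).

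*Scnn1b*, a subunit of the epithelial sodium channel that aldosterone and GCs regulate, had log2 signals of 6.03, 5.25, 5.31, and 6.29 in Flox mice and of 7.77, 6.78, and 7.36 in GR iKO mice. The lowest GR iKO mouse was above the highest Flox mouse, and the difference of 1.58 (SE 0.33) was not called (adjusted p = 0.116). It was called with quantile normalization within each part of the rows (difference 1.63) and not with normexp (difference 0.89). Of the other subunits, *Scnn1g* was lowest in GR iKO replicate 2 at 3.51, and its difference of 0.35 was 1.37 without that mouse and −0.44 without GR iKO replicate 4. *Scnn1a* differed by −0.32, and by 0.07 without GR iKO replicate 2. The list of sodium, chloride, and water transport (14 genes) had a median of −0.03, with 6 genes above 0, 8 below, and no call.

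Secreted antimicrobials had a median of −0.65 over 12 described genes, none of them called in limma, and of −0.05 without GR iKO replicate 2 and −0.96 without replicate 3. *Ang2*, a gene of the angiogenin family of ribonucleases, had log2 signals of 13.58, 15.70, 14.93, and 15.32 in Flox mice and of 11.81, 13.67, and 11.86 in GR iKO mice. Flox replicate 1 and GR iKO replicate 3 overlapped, and the difference of −2.44 (SE 0.52, adjusted p = 0.13) was called without either of them (−2.87 and −3.05, adjusted p = 0.0446 and 0.0387). *Itln1*, a lectin of goblet and Paneth cells, had log2 signals of 8.96, 12.60, 10.44, and 11.75 in Flox mice and of 8.76, 9.39, and 7.02 in GR iKO mice, and Flox replicate 1 lay among the GR iKO mice. *Reg3g*, a lectin that kills Gram-positive bacteria, was 13.77 in GR iKO replicate 2 and between 2.49 and 8.86 in all other PBS mice. Its difference of 3.14 became 0.71 without that mouse and 4.80 without GR iKO replicate 3. *Zg16*, a goblet cell lectin, had a difference of 0.00, with 18.07 to 18.28 in both groups.

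Markers of the epithelium had similar relative signals in all PBS mice, which does not measure how much epithelium was present. The median log2 signal of 10 epithelial markers was 16.19 to 16.33 in Flox mice and 16.16 to 16.21 in GR iKO mice, and their median difference was 0.03. The lists of absorptive colonocytes (0.00), goblet cells (−0.15), enteroendocrine cells (0.17, and from 0.00 to 0.39 with each PBS array left out), tuft cells (−0.21), and stem cells (−0.14) held no called gene. Of the 8 goblet cell markers none was above 0, and their median ran from −0.22 to −0.07 with each PBS array left out. *Fcgbp*, a mucus protein gene, differed by −0.69, and by −0.30 without GR iKO replicate 2 and −0.94 without replicate 4. Macrophages (−0.05), fibroblasts (0.13), granulocytes and mast cells (−0.04), enteric neurons and glia (0.13), and endothelium and blood (−0.09) had medians near 0, and with each PBS array left out these stayed between −0.32 and 0.24. Small intestine and Paneth cell genes, with *Tmprss15* among them, had a median of 0.06 that was −0.42 without GR iKO replicate 2 and 0.30 without replicate 4. This median is over 8 genes, of which 2 were measured in 1 group only, and it was 0.39 over the 6 measured in both groups. Adipocyte genes had a median of 0.16 that was −0.34 without Flox replicate 1, 0.64 without Flox replicate 2, and −0.12 without GR iKO replicate 2.

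Several marker lists differed more, without a called gene. All 7 smooth muscle markers were above 0, with a median of 0.35, and from 0.21 to 0.43 with each PBS array left out. *Acta2*, smooth muscle actin, had log2 signals of 15.43, 15.67, 15.62, and 15.48 in Flox mice and of 15.76 to 16.09 in GR iKO mice, without overlap and not called (0.36, adjusted p = 0.616). T cell markers had a median of 0.69 over 6 genes (0.50 to 0.93 with each PBS array left out), and *Cd8a*, the coreceptor of cytotoxic T cells, did not overlap between the groups, with 4.15, 5.64, 5.09, and 5.70 in Flox mice and 6.79, 5.82, and 6.22 in GR iKO mice (1.13, adjusted p = 0.472), while its 2 other probes differed by 0.39 and 0.54. Over the alternatives of the processing, the T cell median ran from 0.44 to 0.69 and the *Cd8a* difference from 0.49 to 1.15. B and plasma cell markers had a median of 1.01, which was 1.64 without GR iKO replicate 2 and 0.53 without replicate 4, and the mice of the GR iKO group disagreed. *Ms4a1*, which encodes CD20, was 10.22 and 11.11 in GR iKO replicates 3 and 4 but 6.23 in replicate 2, and 5.31 to 7.85 in Flox mice, so that its difference of 2.42 was 3.89, 1.90, and 1.46 without GR iKO replicates 2, 3, and 4. *Jchain*, the joining chain of secreted IgA, differed by −0.43, and by −0.74 to −0.19 with each PBS array left out. The part of immune and muscle cells in the calls was not tested.

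Among the PBS mice, genes of position along the gut split GR iKO replicate 2 from the rest. The mice given DEX are left aside in these ranges, and *Slc10a2* had a mean of 11.39 in Flox mice given DEX. *Hoxb6* was 12.26 in that mouse, 7.45 and 7.35 in the other GR iKO mice, and 7.68 to 8.46 in Flox mice, and *Hoxd13* was 1.96 against 7.89 and 7.86 and 7.26 to 8.29. *Slc10a2*, the bile acid importer of the ileum, was 11.57 in that mouse and 4.55 to 7.28 in the other PBS mice, and *Slc51a*, an exporter of bile acids, was 11.53 against 4.32 to 6.00. *Insl5*, a hormone of colonic endocrine cells, was 11.83 against 14.80 to 15.81. Without that mouse the differences of these genes and of *Hoxb13* were between −0.67 for *Hoxb6* and 0.52 for *Slc10a2*, and with it they ran from −2.38 for *Hoxb13* to 2.31 for *Slc10a2*.

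Exocrine pancreas genes had the lowest list median, −2.30 over 7 described genes, and −0.69 without Flox replicate 2 and −3.14 without Flox replicate 1. The median log2 signal of the list was 14.50 in that mouse, 6.56, 8.73, and 6.42 in the other Flox mice, and 6.43, 7.14, and 7.0 in GR iKO mice. *Clps*, a cofactor of pancreatic lipase, was 16.11 in Flox replicate 2 and 12.19 to 13.27 in the other Flox mice, against 11.47 to 12.23 in GR iKO mice. The number of called probes without this mouse was 62. Mice given DEX held such signal too, with *Cpb1* means of 13.86 in Flox and 10.18 in GR iKO mice and a list median difference of −3.23. How such RNA came to these samples was not tested.

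**Figure D5:**
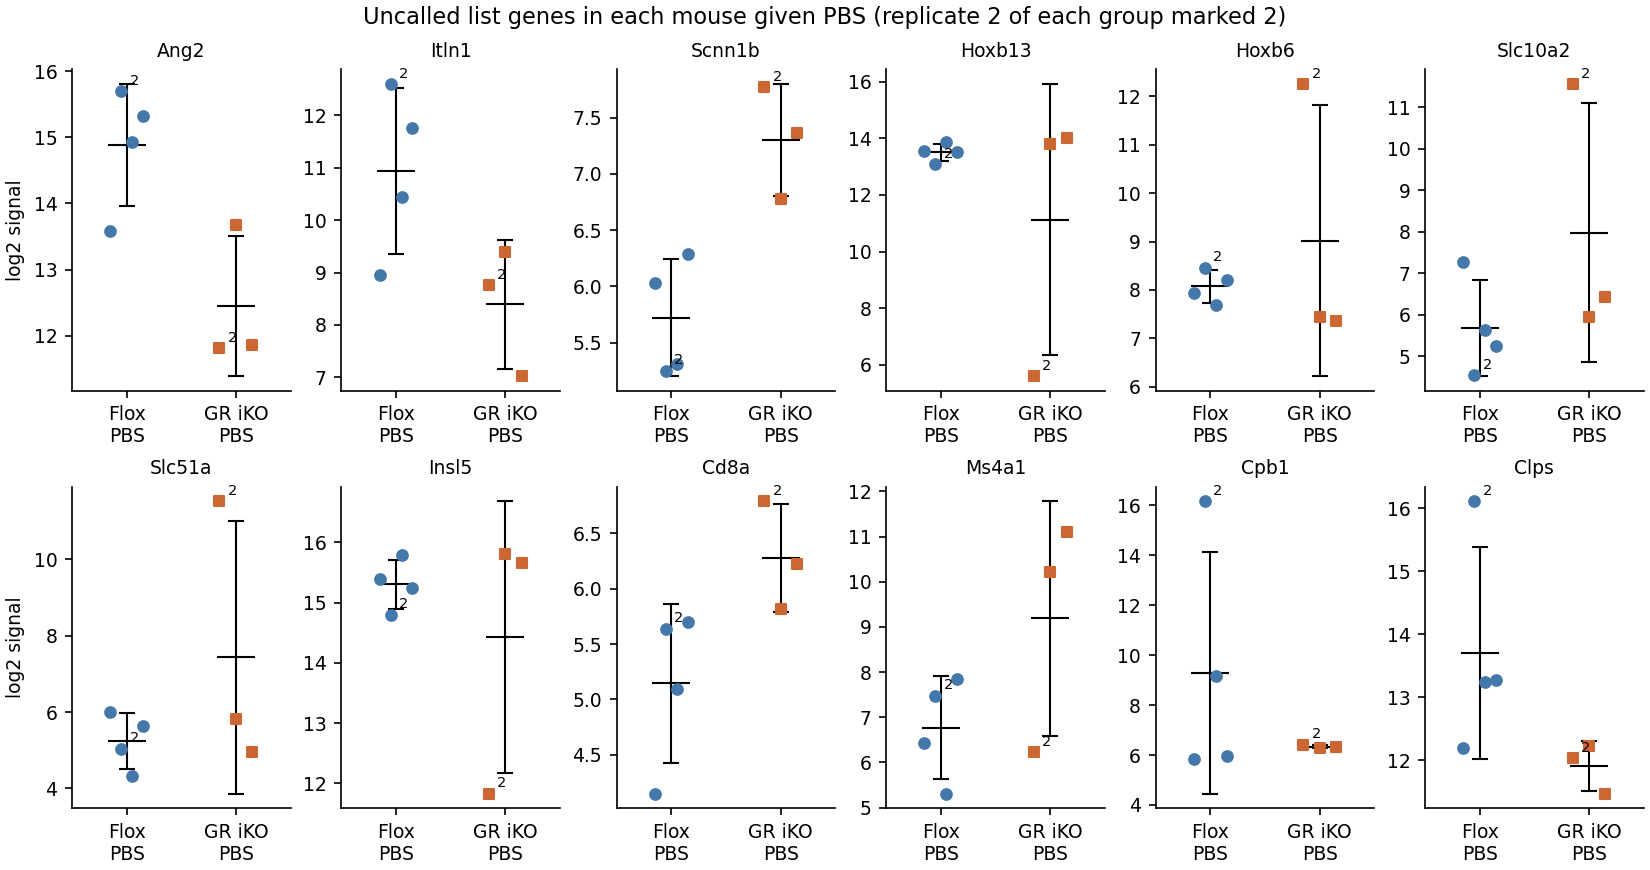
Log2 signal of 12 uncalled genes of the lists in each PBS mouse, chosen after their values were seen, with circles for Flox and squares for GR iKO mice, bars for group means, and error bars for SD (n = 4 and 3). Replicate 2 of each group is marked. GR iKO replicate 2 lies apart for *Hoxb13*, *Hoxb6*, *Slc10a2*, *Slc51a*, and *Insl5*, and Flox replicate 2 for *Cpb1* and *Clps*.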

How the data were processed

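The authors deposited, for each array, spot intensities from Agilent Feature Extraction 12.0.0.7, background-subtracted and detrended within the array, and a table of log2 values, whose columns hold the same sorted values within 0.0024 and were taken as quantile normalized; their processing notes name Partek 6.6, and the steps are not given in the sources used here. The log2 table was used as deposited, with each column closest to its own array (lowest r = 0.9994). One mean per group was fitted over 14 arrays with lmFit and eBayes of limma 3.58.1 (R 4.3.3; 10 residual and 1.53 prior degrees of freedom), checked on simulated data, with Benjamini-Hochberg adjustment over 41174 probes. Tables were made with Python 3.11.15, pandas 2.3.3, and numpy 2.4.6. Detection used the well-above-background flag of the scanner files. Lower bounds compare the mean of the bright group with the mean, over the dim arrays, of the higher of the probe's value and the lowest signal well above background. Of 41174 probes, 28223 were named by RefSeq accession (GRCm38.p6), 951 by the study's supplementary tables, and 12000 had no name. A gene is represented by its brightest probe. Named genes were *Nr3c1* and up to 15 called genes per direction with the largest change. For each list, the called members, the member with the brightest signal, and the 3 with the largest difference were added. A few list members are not reported here by name. Which of the others are described at length was chosen after their values were seen. Members and lists were chosen with earlier results of these data known. Student's t-test is named in the study's methods for small groups in general, and the test for its arrays is in supplemental text not used here. Alternatives covered the source and normalization of values, background correction (normexp, offset 50, on median intensities, the files holding no mean), detection, array parts, model, threshold, and arrays left out. The number of arrays limits the precision.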

Additional observations from a re-analysis of the deposited data

Results flagged for a closer look

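Of 144 named genes, 6 had a Flox PBS mouse far from the other 3, by the gap to the nearest mouse as a share of the group's range. Chance alone gives about 1 such group in 20, and groups of 3, such as the GR iKO mice, were not examined. The shares were 0.947 for *6530409C15Rik* (replicate 4 highest), 0.866 for *Hspa8* (replicate 3 highest), 0.873 for *Saa3* (replicate 2 lowest), 0.853 for *Sct* (replicate 3 lowest), 0.859 for *Cnn1* (replicate 1 lowest), and 0.890 for *Pdgfra* (replicate 1 lowest).

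For 15 named genes, the difference between GR iKO and Flox mice under DEX minus that under PBS was called by limma's test of the difference itself. It was negative for *Cfap54* (−3.56 on the log2 scale), *6530409C15Rik* (−2.15), *Pdzd4* (−2.55), *Hsd11b2* (−2.37), and *Scnn1b* (−2.95). The first 3 were called higher in GR iKO mice under PBS. It was positive for *Tmprss15* (4.66), *Pga5* (3.22), *3930402G23Rik* (2.02), *Adamtsl1* (1.44), *Synpo* (1.77), *Hapln3* (1.35), *Adora2a* (1.36), *9530080O11Rik* (1.1), *Iqcd* (1.00), and *Syn1* (1.02), all called lower under PBS. *Cfap54* and *6530409C15Rik* were well above background on 0 of 4 Flox PBS arrays, *Pdzd4* on 2 of 4, and *Tmprss15* and *Pga5* on 0 of 3 GR iKO PBS arrays. The sizes printed for these 5 are therefore differences of signals at background in part, and none of them is exact.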

How the results depend on the processing

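*Mt1* was called under the alternatives run except Student's t-test after Benjamini-Hochberg adjustment (2.65, adjusted p = 0.197). *Nr3c1* kept its direction and lost its call there (−0.91, adjusted p = 0.378), in the fit of the PBS arrays (−0.91), with the replicate block (−0.93), and with probes averaged (−0.95); at −0.91 it also missed an adjusted p of 0.01 and a 2-fold minimum. Against 52 calls (29 higher, 23 lower), normexp gave 28 (11 higher), quantile normalization within parts of the rows 79 (39 lower), adjustment over probes measured in both groups 18 higher, array weights 83 (50 lower), no moderation 22 (12 and 10), the PBS arrays alone 7 (4 and 3), an adjusted p under 0.01 12 (8 and 4), and a 2-fold minimum 14 lower. Without the middle part of the rows there were 18 (3 and 15), without the last part 33 (4 lower), and without both of these parts, chosen after seeing the data, 3 (2 and 1). Student's t-test gave 1727 (945 and 782) unadjusted and 0 (0 and 0) adjusted. Called list genes, 3 in all, were 1 without the last part of the rows, without both of these parts, with the PBS arrays alone, at 0.01, and with the block, and 18 and 0 in the t-test. Counted among the calls of each setting, calls repeated under DEX, 4 in all, were 7 with adjustment over described probes and with array weights, 2 without both of these parts, with the block, and with the 2-fold minimum, and 1 at 0.01. The 19 called differences between DEX and PBS were 32 with normalization within parts, 5 without the last part of the rows, 1 without both of these parts, 10 without moderation, 44 with array weights, 8 with the block, and 7 at 0.01. Leaving out each array gave 23 to 128 calls (13 to 39 higher, 7 to 89 lower), 2 to 7 repeated calls, 6 to 73 called differences, 2 to 4 list genes, 2.48 to 2.76 for *Mt1*, and −1.05 to −0.79 for *Nr3c1*. Of the 52 probes, 45 were called with the 75th percentile scaling, 52 with columns centred on medians, 25 with normexp, and 42 with a trend. The offset of normexp shrinks differences of dim probes in advance. The cause of the other changes was not tested; leaving out rows or arrays removes probes or samples.

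As for pairing, mice with the same number in the labels correlated in their deviations from the group means at 0.16, 0.15, and 0.04, and Flox replicate 3 correlated best with GR iKO replicate 4 (0.18), so the numbers were not taken as pairs. The replicate block gave 19 calls (11 higher and 8 lower), 17 of them among the 52.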
